A study of Mus musculus with 8 samples.

Results

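The constitutive proteasome subunit genes were examined in the accessible chromatin of mouse medullary thymic epithelial cells (mTECs). They were chosen by symbol, as the protein-coding genes of the GENCODE M21 annotation of mm10 named Psma to Psmg with a number, without Psmb8, Psmb9, Psmb10 and Psmb11. This gave 44 of 21938 protein-coding genes, on 16 chromosomes, with 8 of them on chromosome 11, 6 on chromosome 2 and 5 on chromosome 14. Of the 44 genes, 21 had several annotated transcription starts.

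The proteasome is the protease that degrades ubiquitin-tagged proteins. Its core particle is a stack of rings of alpha subunits, which gate the entrance, and beta subunits, of which some are catalytic. A regulatory particle docks on the core, with a base of ATPases that unfold the substrate and a lid that removes ubiquitin, and other activators can dock in its place. In antigen-presenting cells the constitutive catalytic subunits are exchanged for inducible ones to form the immunoproteasome, and the peptides that proteasomes release are loaded onto MHC class I. mTECs present such self-peptides to developing T cells, while cortical thymic epithelial cells carry a thymoproteasome with the catalytic subunit Psmb11. Transcription of proteasome genes is known to respond to Nfe2l1, a membrane-bound factor that is released and processed when proteasome activity falls and binds antioxidant response elements (AREs).

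Accessible chromatin was assayed by ATAC-seq, which uses a transposase, Tn5, to place sequencing adapters into DNA that is not packed away. The 8 samples came from thymi of wild-type (wt) BL6N6 mice a few weeks of age, in 4 groups of 2 biological replicates, Tspan8neg MHCIIlow, Tspan8neg MHCIIhigh, Tspan8pos MHCIIlow and Tspan8pos MHCIIhigh. mTECs were sorted as Epcam-positive, CDR1-negative and CD45-negative cells, and Tspan8 marks mTECs that express this tissue-restricted antigen. MHC class II is high in mature mTECs, while per the study MHCIIlow cells hold both immature mTECs and late stages that have lowered it again. How many mice entered each sample was not given in the sources used here. The data described are the 57124 consensus regions merged over the samples, each with a position and a width, which belong to all samples together. The 8 columns of read counts had names that matched no sample label and were not used, so depth is not analysed here, no value per sample is given, and no difference between groups was tested.

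The cell type label was checked against marker genes in the same regions. All 11 mTEC and epithelial marker genes looked up (Epcam, Krt5, Krt14, Aire, Foxn1, H2-Ab1, H2-Aa, Cd80, Tspan8, Cldn4 and Trp63) had a region at a start. Of 9 thymocyte genes (Cd3e, Cd3d, Cd3g, Cd4, Cd8a, Ptcra, Rag1, Lck and Ptprc), 0 had a region with its centre in the promoter window and 0 had a covered start, the nearest region centre being 1887 bases from the start of Lck. Of 5 genes that mark cortical epithelium, 4 (Prss16, Ly75, Ccl25 and Cxcl12) had a region at a start, and Psmb11 did not. A region at a start does not measure expression.

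The sequences that carried the clearest difference from other genes are shown first. An ARE was searched as TGACNNNGC on both strands, and 6 members held the single spelling TGACTCAGC within an accessible region at a start. These were 6 of 43 member regions (14.0%), compared with 0.984% of all regions at starts of protein-coding genes. Regions of ribosomal protein genes held it in 0 of 82. This spelling was chosen after values were seen, and no test was run. A letter match does not show which factor binds, and motifs of other factors that may share these letters were not searched. The lines give each match with 10 bases on either side, 5′ to 3′ on the strand on which the motif reads as spelled, with the motif in capitals, from the GRCm38 (mm10) reference.
Psma3, chr12:70974950-70974978, minus strand: gagactaaagTGACTCAGCacccggggct
Psma5, chr3:108257487-108257515, minus strand: ggattagcggTGACTCAGCgggacaagtg
Psmd1, chr1:86064853-86064881, minus strand: tcacccgcccTGACTCAGCtaaacgccgg
Psmd2, chr16:20651881-20651909, minus strand: gagccagcagTGACTCAGCccaaggcctc
Psmd7, chr8:107588221-107588249, plus strand: ggcgcgcccgTGACTCAGCagccctgcgc
Psmd12, chr11:107479713-107479741, minus strand: ctccacgccgTGACTCAGCccctggcgcc
All 6 matches lay in an intron, from 150 bases (Psmd12) to 575 bases (Psma5) downstream of the nearest start. The flanking bases differed between the genes.

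For the constitutive catalytic subunits Psmb5 and Psmb6 the accessible sequence upstream of the start is shown whole, from the edge of the region to the base before the start and on the strand of the gene, because both hold an ARE match in the last bases before the start. Capitals mark that match.
Psmb5, chr14:54618023-54618135, minus strand: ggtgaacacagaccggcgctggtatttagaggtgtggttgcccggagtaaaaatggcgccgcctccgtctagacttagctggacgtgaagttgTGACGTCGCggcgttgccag
Psmb6, chr11:70525119-70525385, plus strand: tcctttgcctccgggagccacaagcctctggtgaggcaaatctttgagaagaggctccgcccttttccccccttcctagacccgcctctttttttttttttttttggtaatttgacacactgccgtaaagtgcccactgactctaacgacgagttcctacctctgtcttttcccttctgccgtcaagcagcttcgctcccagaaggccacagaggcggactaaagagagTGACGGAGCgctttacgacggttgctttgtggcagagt
The middle of the match lay 16 bases upstream of the start in Psmb5 and 34 bases upstream in Psmb6. Of the other letters searched, none matched in these stretches.

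Nearly all members had an accessible region at a start. A promoter region was defined as a region whose centre lay at most 1000 bases upstream or 100 bases downstream of a start, and 29 of 44 members (65.9%, 95% Wilson interval 51.1 to 78.1) had at least 1, compared with 48.6% of all protein-coding genes. A start was covered by a region in 41 of 44 members (93.2%, interval 81.8 to 97.7), compared with 56.4% of all protein-coding genes. By either rule, 42 of 44 members had a region (95.5%, interval 84.9 to 98.7), compared with 59.6% of all protein-coding genes and 95.2% of ribosomal protein genes. Psma8 and Psmb7 had none. Ribosomal protein genes, another set chosen by symbol and including paralogues such as Rpl3l, had a promoter region in 63 of 83 (75.9%, interval 65.7 to 83.8). They had a covered start in 79 of 83 (95.2%, interval 88.3 to 98.1), and the intervals of both sets overlapped. Rpl10l, Rpl35, Rpl39l and Rpl3l had no region by either rule. The intervals cover counting error over genes, which do not stand in for replicate samples.

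**Figure D1:**
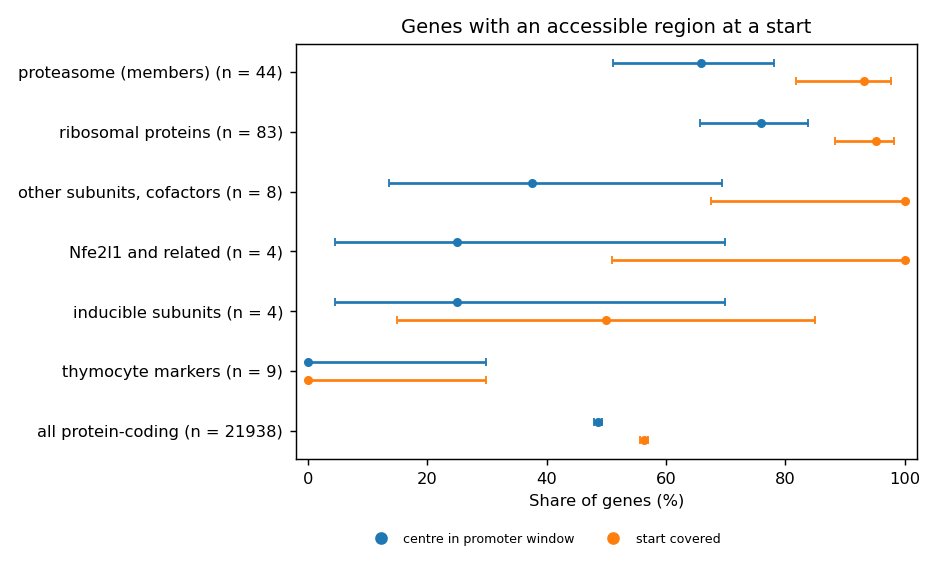
Share of genes (%, x axis) with a region centred in the promoter window (blue) or covering a start (orange), for the gene sets on the y axis with their number of genes; bars are 95% Wilson intervals. A covered start was found for 93.2% of the proteasome genes and 56.4% of all protein-coding genes, and for 0 of 9 thymocyte markers.

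The distance between both counts came from regions centred just inside the gene. For 13 members the region covered a start but had its centre 101 to 278 bases downstream (median 145), beyond the window. These were Psma3, Psma4, Psma5, Psmb4, Psmc1, Psmd2, Psmd6, Psmd7, Psmd11, Psme3, Psme4, Psmf1 and Psmg4. They made up 31.0% of the 42 members with a region (interval 19.1 to 46.0), compared with 18.5% of the 13084 protein-coding genes with a region by either rule and 20.3% of such ribosomal protein genes. The median width of these 13 regions was 654 bases (411 to 1001). The members next to the limit of the window were Psmc6 and Psma6 inside it, with centres 74 and 93 bases downstream, and Psmd2 and Psmc1 outside it, with centres 101 and 106 bases downstream.

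**Figure D2:**
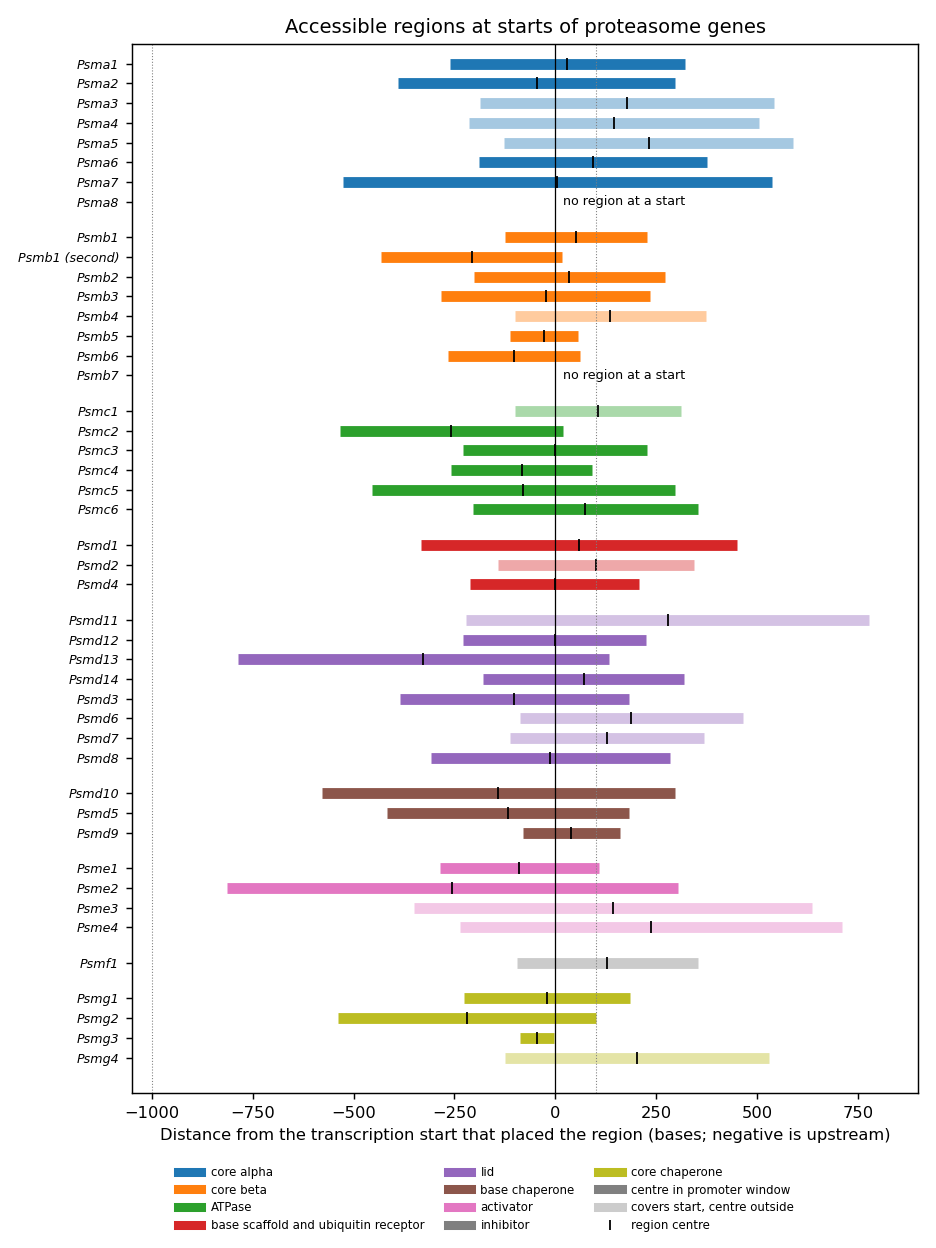
Each bar is an accessible region of a proteasome gene, placed by its distance in bases from a transcription start (x axis, negative is upstream), with a tick at its centre; the start is the nearest whose window holds the centre or, failing that, the nearest covered one, and Psmd13 has another start nearer to the centre; dotted lines mark the promoter window, colours the role of the subunit, and pale bars regions that cover a start with the centre outside the window. Psmb1 has a pair of regions at different starts, Psma8 and Psmb7 have none, and Psmg3 has the narrowest, 84 bases.

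The alpha subunits form the outer rings of the core, and Psma8 is the form of testis. A promoter region was found for 4 of 8 alpha genes and a covered start for 7. Psma7 had the widest region of the core genes, 1063 bases at chr2:180041874-180042936, with its centre 5 bases downstream of the start. That region was also a promoter region of Ss18l1. Psma2 followed with 687 bases (chr13:14612851-14613537), then Psma1 with 585 bases (chr7:114275796-114276380) and Psma6 with 565 bases (chr12:55398586-55399150). Psma3 (731 bases), Psma4 (721 bases) and Psma5 (717 bases) had regions of like width, centred 178, 145 and 231 bases downstream of the start. Psma8 had no region in or near its start, the nearest being centred 23244 bases upstream, outside any exon of the gene.

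The beta subunits form the inner rings, where Psmb5, Psmb6 and Psmb7 carry the catalytic sites. Promoter regions of the beta genes were narrower than those of the alpha genes. The median was 400 bases (169 to 519) over 6 regions, compared with 636 bases (565 to 1063) over 4, and the ranges did not overlap. Both medians lay within the quartiles of all promoter regions (324 and 722 bases), and the difference was not tested. Psmb5, the subunit with chymotrypsin-like activity, had a region of only 169 bases (chr14:54617967-54618135). Psmb6, with caspase-like activity, had 330 bases (chr11:70525119-70525448). Psmb7, with trypsin-like activity, had a region of 399 bases (chr2:38643653-38644051) that began 36 bases from the start and was centred 235 bases downstream, over an exon with UTR and coding sequence, and so met neither rule. Psmb3, a structural subunit, had the widest region among the beta genes, 519 bases (chr11:97703116-97703634), and Psmb2 had 476 bases (chr4:126677428-126677903). Psmb4 had 475 bases centred 136 bases downstream. Psmb1 was the member with 2 promoter regions, 352 bases at chr17:15498072-15498423 and 448 bases at chr17:15499735-15500182, each at a start of its own.

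The inducible catalytic subunits, left out of the members by the rule, differed among themselves. Psmb8, which takes the place of Psmb5, had a promoter region of 394 bases (chr17:34197445-34197838). Psmb9, which takes the place of Psmb6, had a start covered by 661 bases (chr17:34187250-34187910), centred 184 bases downstream. Psmb10, which takes the place of Psmb7, had no covered start, and its nearest region, 104 bases wide (chr8:105938057-105938160), was centred 336 bases downstream. The region nearest to Psmb11 was that of its neighbour Psmb5, 7259 bases upstream. With 2 of 4 starts covered, the interval ran from 15.0 to 85.0% and held the 56.4% of all protein-coding genes. Both genes of the trypsin-like site, Psmb7 and Psmb10, thus had their nearest region downstream of the start and short of it.

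The ATPases of the base (Psmc genes) unfold and thread the substrate. All 6 had a covered start and 5 a promoter region. Psmc5 had the widest of these, 753 bases (chr11:106255699-106256451), followed by Psmc6 with 560 bases (chr14:45329583-45330142), Psmc2 with 554 bases (chr5:21784749-21785302) and Psmc3 with 458 bases (chr2:91053870-91054327). Psmc4 had the narrowest, 351 bases (chr7:28050009-28050359), and Psmc1 had 411 bases centred 106 bases downstream. Of the scaffold and ubiquitin-binding subunits of the base, Psmd1 had 786 bases (chr1:86064285-86065070), Psmd4, a ubiquitin receptor, had 420 bases (chr3:95042345-95042764), and Psmd2 had 485 bases centred 101 bases downstream. Centres in these groups lay between 258 bases upstream (Psmc2) and 106 bases downstream.

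The lid removes ubiquitin chains through Psmd14, a metalloprotease. All 8 lid genes had a covered start and 5 a promoter region, from 455 bases in Psmd12 (chr11:107479299-107479753) to 919 bases in Psmd13 (chr7:140881678-140882596). Psmd14 had 501 bases (chr2:61711514-61712014), Psmd3 568 bases (chr11:98682169-98682736) and Psmd8 593 bases (chr7:29180269-29180861). The centre lay 278 bases downstream of the start in Psmd11. In Psmd13, which has several starts, it lay 327 bases upstream of the start whose window held it and 169 bases downstream of the nearest start. Psmd11, which clamps the lid to the core, had 1001 bases (chr11:80428403-80429403). Psmd6 had 553 bases and Psmd7 482 bases, centred 188 and 129 bases downstream.

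The chaperones and regulators were more spread. The base chaperones Psmd5, Psmd9 and Psmd10, which help to assemble the ATPase ring, each had a promoter region, of 601 bases (chr2:34870780-34871380), 240 bases (chr5:123228110-123228349) and 875 bases (chrX:140956432-140957306). Among the core chaperones, Psmg1 had 412 bases (chr16:95990706-95991117), Psmg2 had 641 bases, Psmg4 had 654 bases centred 202 bases downstream, and Psmg3 had 84 bases (chr5:139826889-139826972), the narrowest of all, whose edge stopped short of the start. Psme1 and Psme2 encode the interferon-inducible activator of the core. Psme2 had the widest promoter region of all members, 1118 bases (chr14:55590798-55591915), and Psme1 had 394 bases (chr14:55578289-55578682). The region of Psme2 was also a promoter region of Rnf31. The nuclear activators Psme3 (988 bases) and Psme4 (947 bases) had wide regions centred 142 and 237 bases downstream. Psmf1, an inhibitor of the core, had 449 bases centred 129 bases downstream.

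The widths of members followed those of other promoters. Over the 30 promoter regions of the members the median was 536.5 bases (order-statistic interval 448 to 593), with quartiles of 414 and 631 and a range of 84 to 1118. All 10681 promoter regions of protein-coding genes had a median of 509 bases (interval 503 to 516) with quartiles of 324 and 722, and those of ribosomal protein genes 587 bases (interval 537 to 644). By either rule the medians were 554 bases over 43 member regions (interval 475 to 641) and 553 bases over all. The interval of the members held the median of all regions under both rules. Regions under 200 bases made up 2 of 30 (Psmb5 and Psmg3), compared with 12.9% of all, and regions of 800 bases or more 4 of 30 (13.3%), compared with 18.6%. These 4 wide regions, at Psma7, Psmd10, Psmd13 and Psme2, were each also a promoter region of another protein-coding gene. Widths depend on the peak caller and on merging, and were not tested between groups.

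**Figure D3:**
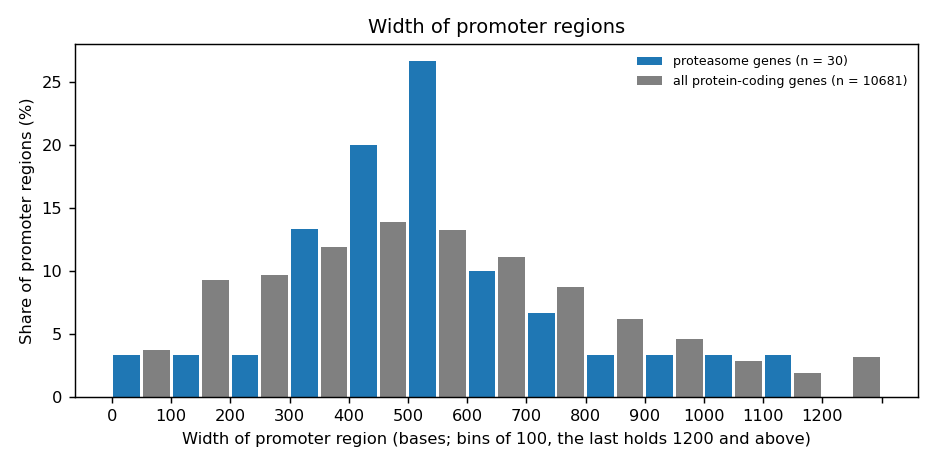
Share of promoter regions (%, y axis) in bins of 100 bases of width (x axis; the last bin holds 1200 bases and above) for the proteasome genes (blue, 30 regions) and all protein-coding genes (grey, 10681 regions). Member widths gather between 300 and 700 bases, with a median of 536.5 bases compared with 509.

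Of the 30 promoter regions, 29 (96.7%) covered a start, compared with 87.2% of all, the exception being Psmg3. Their centres had a median of 26.5 bases upstream (quartiles 102.8 upstream and 23.75 downstream), close to the 33 bases upstream of all promoter regions. With 1 region per gene, the start itself was covered in 97.6% of the 42 members with a region and in 93.7% of the 13084 protein-coding genes with a region. At 250 bases upstream the share was 42.9% in members, 52.3% in all and 57.0% in ribosomal protein genes. At 250 bases downstream it was 59.5%, 56.6% and 67.1%, and at 500 bases downstream 19.1%, 15.5% and 10.1%.

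**Figure D4:**
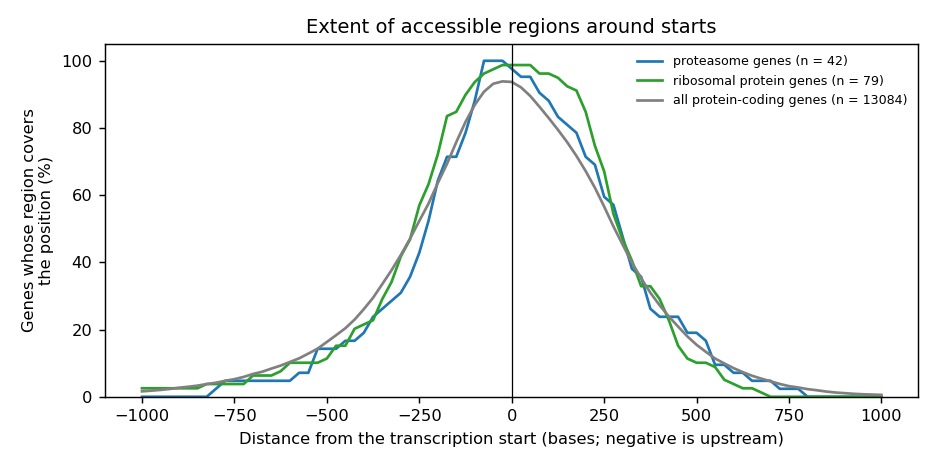
Share of genes (%, y axis) whose region covers each position around the transcription start (x axis, bases, negative is upstream), for proteasome genes (blue, 42), ribosomal protein genes (green, 79) and all protein-coding genes (grey, 13084), each gene with its nearest region. At 250 bases upstream the proteasome curve lies at 42.9% and the curve of all genes at 52.3%.

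In base composition the members resembled other promoters. GC content had a median of 62.1% (52.6 to 72.4), compared with 65.3% over all and 62.3% in ribosomal protein genes. The observed to expected ratio of CpG had a median of 0.768, compared with 0.787, and was lowest in Psmd10 (0.397) and highest in Psmg2 (1.07). Soft-masked repeats made up a median of 2.70% of a member region and 3.50% of all, and 13 of 30 member regions (43.3%) held none, compared with 40.3%.

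Member promoters were often shared with another gene. Of the 30 promoter regions, 9 (30.0%, interval 16.7 to 47.9) were also a promoter region of another protein-coding gene, compared with 8.87% of all, which lay below the interval. Of the promoter regions of ribosomal protein genes, 14 of 66 were shared (21.2%), which lay within it. In 8 of the 9 the genes were head to head on opposite strands. These were Psma2 with Mrpl32, a mitochondrial ribosomal protein, Psma7 with Ss18l1, a chromatin regulator of neurons, Psmb1 with Tbp, the TATA-binding protein, Psmc5 with Ftsj3, an rRNA methyltransferase, Psmd10 with Atg4a, an autophagy protease, Psmd13 with Sirt3, a mitochondrial deacetylase, Psme2 with Rnf31, a ubiquitin ligase of linear chains, and Psmg2 with Cep76, a centriole protein. Psmg3 shared its region with Gm26938 on the same strand. Psmc2 and Dnajc2, a chaperone of the ribosome, were also head to head, with starts 32 bases apart, but Dnajc2 had its start covered and not the centre in its window. Reads over such a region cannot be told apart between the genes.

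The DNA between the starts is given below for the 7 head-to-head pairs from 32 to 179 bases apart, because the whole of it lay within an accessible region. It is read 5′ to 3′ on the strand of the proteasome gene, and capitals mark matches of the motifs searched (listed with the motif counts).
Mrpl32 to Psma2, chr13:14613166-14613239, plus strand: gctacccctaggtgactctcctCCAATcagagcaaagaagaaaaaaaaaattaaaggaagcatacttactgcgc
Ss18l1 to Psma7, chr2:180042434-180042508, minus strand: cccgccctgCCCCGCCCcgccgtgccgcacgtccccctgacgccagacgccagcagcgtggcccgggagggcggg
Dnajc2 to Psmc2, chr5:21785252-21785282, plus strand: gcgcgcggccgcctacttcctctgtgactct
Tbp to Psmb1, chr17:15499752-15499887, minus strand: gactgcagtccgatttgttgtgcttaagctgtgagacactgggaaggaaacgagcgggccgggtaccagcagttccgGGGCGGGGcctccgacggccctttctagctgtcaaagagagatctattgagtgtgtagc
Ftsj3 to Psmc5, chr11:106256080-106256153, plus strand: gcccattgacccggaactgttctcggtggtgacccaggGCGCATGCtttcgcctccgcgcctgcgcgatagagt
Sirt3 to Psmd13, chr7:140881870-140881967, plus strand: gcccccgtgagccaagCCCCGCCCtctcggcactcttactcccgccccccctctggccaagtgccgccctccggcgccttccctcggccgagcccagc
Atg4a to Psmd10, chrX:140956729-140956906, minus strand: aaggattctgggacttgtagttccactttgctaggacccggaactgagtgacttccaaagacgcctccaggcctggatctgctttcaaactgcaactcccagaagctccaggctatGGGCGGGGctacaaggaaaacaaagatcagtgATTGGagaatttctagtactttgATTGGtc
The nearest starts were 75 bases apart in Psma2 and Psmc5, 76 in Psma7, 99 in Psmd13, 137 in Psmb1, 179 in Psmd10, 263 in Psmg2 and 607 in Psme2. The stretches held different motifs, a CCAAT box at Psma2, a GC box at Psma7, Psmb1 and Psmd13, both at Psmd10, the motif of nuclear respiratory factor 1 at Psmc5, and no match at Psmc2.

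Motifs of 10 kinds were counted in the 300 bases around the centre of each promoter region, on both strands, as plain letter matches. The antioxidant response element was found in 7 of 30 member regions (23.3%, interval 11.8 to 40.9), compared with 15.0% of all promoter regions. The ETS motif (CCGGAAG) was found in 7 (23.3%, the same interval), compared with 15.9%, in Psma6, Psmc3, Psmc6, Psmd12, Psmd14, Psmg1 and Psmg3. The Krüppel-like factor (KLF) motif (GGGNGTGG) was found in 3 (10.0%, interval 3.46 to 25.6), compared with 22.3%. For each of these the interval held the share of all promoter regions. For the ARE and the ETS motif this depended on the stretch searched. In 300 bases around the start in place of the centre, each was in 9 of 30 (30.0%, interval 16.7 to 47.9), compared with 14.5% (ARE) and 16.0% (ETS) of all, both below the interval. In 200 bases around the centre the ARE was again in 7 of 30, compared with 10.4%, also below the interval of 11.8 to 40.9, while the ETS motif was in 4 (13.3%), compared with 12.0%. The ETS and KLF families are of interest in mTECs because the study addresses their factors.

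Most of the other motifs were near the background too. The GC box (GGGCGGGG) was in 10 of 30 (33.3%), compared with 34.1%, and the CCAAT box (CCAAT) in 9 (30.0%), compared with 33.5%. The motif of nuclear respiratory factor 1 (GCATGCGC), a factor other than Nfe2l1, was in 3 (10.0%, interval 3.46 to 25.6), compared with 4.21%, namely Psma2, Psmc5 and Psmg1. It was again in 3 when only 200 bases around the centre were searched, compared with 2.87%, below the interval. The YY1 motif (AAGATGGCG), which often overlaps the start codon, was in 3 (10.0%, interval 3.46 to 25.6), compared with 3.13%, just under the interval, namely in Psmb6, Psmc5 and Psmd8, and in 0 of 30 when only 200 bases around the centre were searched. The cAMP response element (CRE, TGACGTCA) was in 1, Psmb2, compared with 3.0%, and the E-box (CACGTG) in 1, Psmd9, compared with 9.32%. The TATA box (TATAAA) was in 0 of 30, an upper limit of 11.4%, compared with 4.20%. In Psmd9 the ARE and the GC box matches overlapped.

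The share with an ARE was higher where the whole accessible region was searched, in members and in all. The ARE was found in 16 of 30 promoter regions (53.3%, interval 36.1 to 69.8), compared with 24.9% of all, and in 8 of the 13 regions centred downstream (61.5%, interval 35.5 to 82.3), compared with 32.0%. Over both kinds of region, 24 of 43 member regions held an ARE (55.8%, interval 41.1 to 69.6), compared with 26.2% of all and 20 of 82 regions of ribosomal protein genes (24.4%, interval 16.4 to 34.7), although the median widths of members and of all were 554 and 553 bases. The interval of the members lay above the share of all regions and did not overlap that of the ribosomal protein genes. Whether the interval of the members held the share of all depended on the stretch searched, as given above. Several stretches and motifs were searched, so intervals that lie apart in this setting cannot set chance aside. TGACTCAGC, a single spelling among those that TGACNNNGC allows, was in 6 of 43 (14.0%, interval 6.56 to 27.3). It was in 0.984% of all regions and 0 of 82 of the ribosomal protein genes (upper limit 4.47%). The search of this single spelling and of both kinds of region was chosen after values were seen, and no test was run.

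The AREs are letter matches and not shown binding sites, and 26.2% of all regions held them. By role, ARE matches were in regions of the alpha genes Psma1 to Psma6, the beta genes Psmb2, Psmb5 and Psmb6, and the ATPases Psmc3 to Psmc6. They were also in regions of the base subunits Psmd1 and Psmd2 and the lid genes Psmd3, Psmd6, Psmd7, Psmd12 and Psmd13. The base chaperone Psmd9, the activators Psme3 and Psme4, and the core chaperone Psmg2 had matches too. Regions of the core genes Psma7, Psmb1, Psmb3 and Psmb4 and of the base genes Psmc1, Psmc2 and Psmd4 held none. The same was true of Psmd5, Psmd8, Psmd10, Psmd11, Psmd14, Psme1, Psme2, Psmf1, Psmg1, Psmg3 and Psmg4. The 24 genes had 32 matches, 25 downstream and 7 upstream of the nearest start, with a median of 187.5 bases downstream and a range from 332 upstream to 588 downstream. The sides were not compared with other genes, and the stretch searched included regions centred downstream of the window. Psmd1 had the most, 4 matches.

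Further ARE matches, of a core and of regulatory subunits, show other letters between the fixed bases, and ETS matches of lid genes are given beside them. Each line gives the motif in capitals with 10 bases on either side.
Psmb2 ARE, chr4:126677619-126677647, plus strand: gccgcgccagTGACTGGGCcgtcgcgcgt
Psmc3 ARE, chr2:91054278-91054306, plus strand: gagagtccagTGACTCGGCaggagaagat
Psmd6 ARE, chr14:14120705-14120733, plus strand: cctaggccgcTGACTCGGCgctcgctggc
Psmd12 ETS, chr11:107479501-107479527, minus strand: gtcactcgcaCCGGAAGtcgcccgctc
Psmd14 ETS, chr2:61711731-61711757, plus strand: agccgggaacCCGGAAGtacttctctg
The ARE lay 3 bases downstream of the start in a UTR exon of Psmb2, 192 bases downstream in coding sequence of Psmc3 and 265 bases downstream in an intron of Psmd6. The ETS match lay 14 bases upstream of the start in Psmd12 and 50 bases downstream in Psmd14.

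Whole regions also held more ETS motifs, but not more than in the other set. An ETS motif was in 19 of 43 member regions (44.2%, interval 30.4 to 58.9), compared with 23.6% of all and 43.9% of the ribosomal protein genes. The YY1 motif was in 6 of 43 (14.0%), compared with 5.18% of all and 12.2% of the ribosomal protein genes. The KLF motif was in 14 of 43 (32.6%), compared with 35.8% of all and 19.5% of the ribosomal protein genes.

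**Figure D5:**
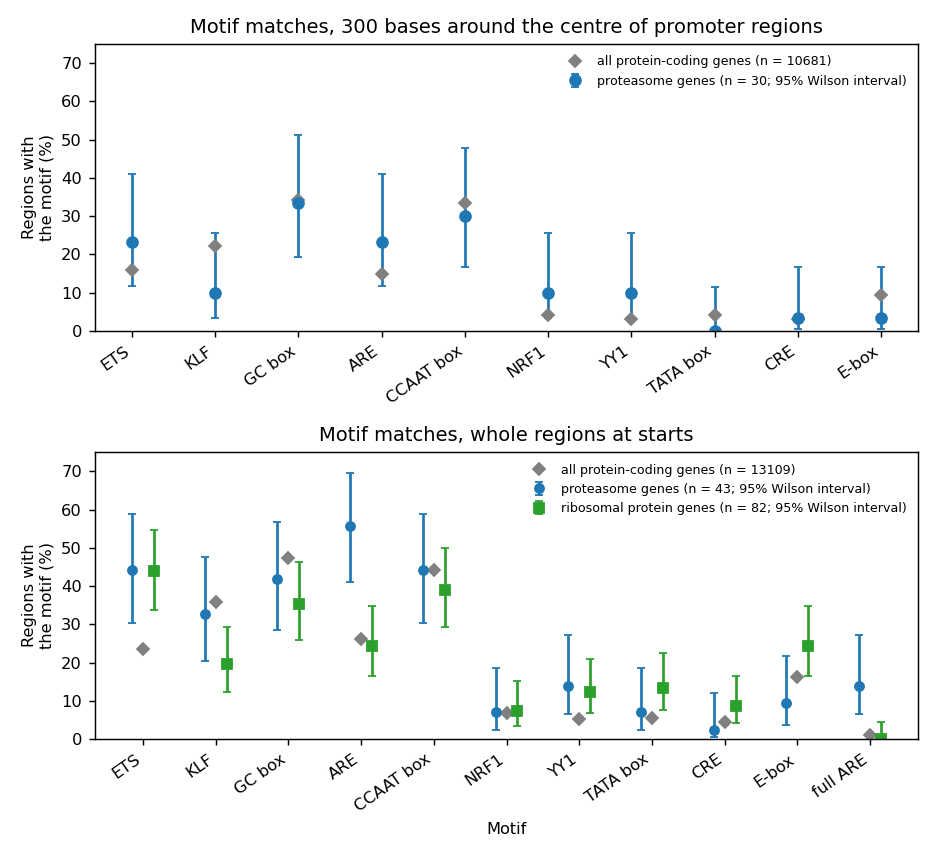
Share of regions (%, y axis) with each motif (x axis), in the 300 bases around the centre of promoter regions (top) and in whole regions at starts (bottom), for proteasome genes (blue), ribosomal protein genes (green, bottom only) and all protein-coding genes (grey diamonds); bars are 95% Wilson intervals. In whole regions the ARE stands at 55.8% in proteasome genes and 26.2% over all genes. The axis label full ARE stands for the single spelling TGACTCAGC, a letter match that does not show which factor binds.

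Further regions inside the gene were less frequent in members than over all genes. Inside the gene bodies, 6 of 44 members (13.6%, interval 6.40 to 26.7) had 13 regions that met neither rule, compared with 38.4% of all protein-coding genes and 6.02% of the ribosomal protein genes. Genes differed in length, with a median of 12.9 kb in members, 16.7 kb over all and 3.23 kb in ribosomal protein genes, and the part of length was not tested. Psmb7 had 5, including the region next to its start described above, and the widest was intronic, 748 bases (chr2:38621228-38621975) centred 22486 bases from the start, and Psma6 had 4. Psma2, Psmc2, Psmd14 and Psme2 had 1 each, that of Psmc2 being 340 bases over an exon (chr5:21786633-21786972).

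Related genes outside the rule were looked up as well, beside the 48.6% of all protein-coding genes with a promoter region and the 56.4% with a covered start. Of 8 other subunits and cofactors (Sem1, Adrm1, Uchl5, Pomp, Usp14, Txnl1, Ecpas and Vcp), 3 had a promoter region and 8 a covered start (interval 67.6 to 100%). Of the 4 genes that act in proteasome transcription, 1 had a promoter region and 4 a covered start (interval 51.0 to 100%, which held 56.4%). Among these, Nfe2l1 had 2 promoter regions, the wider of 1129 bases (chr11:96829413-96830541), and Nfe2l2, a related factor, had 1573 bases (chr2:75703448-75705020) centred 407 bases downstream. Ddi2, the protease that cleaves Nfe2l1, had 732 bases, and Ngly1, which removes its sugar chains, had 677 bases.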

How the data were processed

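ATAC-seq libraries of sorted mTECs, 8 samples in 4 groups of 2, were processed by the authors, who aligned reads to mm10 with Bowtie2, removed mitochondrial, multimapping and duplicate reads, called broad peaks with MACS2 and merged them with bedtools. Whether peaks were called per sample is not given in the sources used here. Per the file headers, reads were counted with featureCounts 2.0.3; the deposited start, end and width of each region were used here. The 8 columns of read counts had names that match no sample label and were not used, so the planned comparison of counts between groups was not run, and depth and its precision are not analysed here.

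Regions were assigned to starts of the basic set of GENCODE M21 and no region (0 chromosomes) ran beyond the GRCm38 reference. Motifs, GC and CpG content and soft-masked repeats came from that reference. Shares have 95% Wilson intervals and medians order-statistic intervals, which cover counting error only. The genes named are all members and the fixed lists. A further list is not reported here. The members and lists were chosen with earlier results of these data known. The assignment and motif functions were tested on simulated data. Alternatives covered the promoter window, the annotation, width and repeat limits and the stretch searched for motifs. Tools were pysam 0.24.0, scipy 1.17.1, pandas 2.3.3, numpy 2.4.6 and matplotlib 3.10.9 under Python 3.11.15.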

Additional observations from a re-analysis of the deposited data

How the results depend on the processing

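Of 94 alternatives over 14 results, 81 stayed within the interval of the reported value and 13 moved beyond it. The share of members with a promoter region, 65.9%, rose with wider definitions of the promoter. It was 86.4% with the comprehensive annotation and 97.7% with 500 or with 1000 bases on either side of a start. It was 93.2% where a region had only to overlap a start, compared with 56.4% of all protein-coding genes. Wider definitions can raise the share in any set of genes, and under the other definitions that of all genes is not given here. The share of promoter regions that covered a start went from 96.7% to 100% when narrower regions (under 200 bases) were dropped and with the Psma, Psmb, Psmc and Psmd genes alone. With whole regions searched, KLF motifs were in 33.3% of member regions and 34.4% of all. AREs were in 53.3% and 24.9%, and CCAAT boxes in 50% and 44.3%. With 200 bases around the centre YY1 motifs were in 0% of member regions and 2.42% of all. With whole regions by either rule, a setting chosen after seeing the data, ETS motifs were in 44.2% of member regions and 23.6% of all. KLF motifs were in 32.6% and 35.8%, and AREs in 55.8% and 26.2%. A longer search finds more matches in any region, so these shares are to be read only beside those of all regions searched in the same way. The median width ranged from 536 to 557 bases over its alternatives. No paired analysis was possible because the columns of read counts carry no sample label, and for the same reason no replicate could be left out and the alternatives planned for the count comparison were not run.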
